A study of Homo sapiens with 24 samples.

Results

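The transcripts examined here are those of 41 genes for vesicle transport between the endoplasmic reticulum (ER) and the Golgi. They are the rows of the deposited expression table whose Ensembl identifiers map, in GENCODE release 29, to a listed set of symbols, 41 of the 57979 rows used. All 41 reached the minimum level set for testing. They fall into 13 genes of the COPII coat and the ER exit site, 8 subunits of the COPI coat, 8 members of the TMED (p24) family, 3 KDEL receptors, 7 other cargo receptors, and a pair made of a tether and a SNARE. The cells were Huh7, a human hepatoma line, with a knockout (KO) of *ABHD6* or as wild type (WT). *ABHD6* encodes a serine hydrolase that cleaves monoacylglycerols. KO and WT cells were taken from basal medium (0 h) or following 24 h or 48 h in 800 µM palmitic acid, a fatty acid of the saturated kind. Each of these 6 groups had 4 libraries, making 24. Cells cultured as long without the acid were not part of the design, so effects of the acid and of the hours in culture cannot be told apart. How many KO clones were used is not stated in these sources, nor whether libraries within a group stem from separate cultures. The p-values therefore measure the spread between these libraries, which may be technical.

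Proteins made in the ER leave it in vesicles coated with COPII. The GTPase SAR1, switched on by PREB (also called SEC12), recruits the inner coat of SEC23 and SEC24, which selects cargo, and then the outer cage of SEC13 and SEC31, while SEC16 and TFG organise the exit site. COPI vesicles carry escaped ER proteins, recycled receptors and machinery back from the Golgi, and the KDEL receptors catch soluble ER chaperones for that return trip. TMED proteins and the lectin LMAN1 with its partner MCFD2 load cargo. In hepatocytes this route carries albumin, clotting factors and lipoproteins, and several of its genes are known targets of the unfolded protein response in mammalian cells.

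Expression was given as FPKM, fragments scaled to transcript length and to the fragments of the library. The smallest steps of the values put the fragments behind a library at 401442 to 503930 for the 0 h groups and 578053 to 713570 for the later groups. One more fragment on a transcript of 3 kb then adds 0.467 to 0.83 FPKM, so low rows rest on a handful of fragments. These depths are estimates, since the step was sought within a fixed range of values, which bounds the result. They also assume no further scaling between libraries, which is not stated in these sources. Mean levels of the 41 genes over the 24 libraries ran from 0.754 FPKM for *SEC24B* to 192.6 FPKM for *TFG*, with a median of 14.8, and 36 of them were above 0 in every library. *ABHD6* itself was above 0 in 4 of 12 KO libraries (at most 0.771 FPKM) and in 3 of 12 WT libraries (at most 1.16 FPKM), which is too low to check the genotype labels. The 13 hepatocyte genes summed to 751.8 to 1307 FPKM in KO libraries and 983.9 to 1671 FPKM in WT libraries, with none at 0 throughout. Stellate markers summed to at most 10.11 FPKM and endothelial markers to at most 26.98 FPKM in any library. Biliary markers summed to 12.25 to 52.55 FPKM. The immune markers summed to 83.74 to 337.5 FPKM, of which *LYZ* had a mean of 182.7 FPKM, while *CD79A* was listed at 0 in all libraries and *PTPRC* averaged 0.0797 FPKM. *LYZ*, whose exons overlap 599 bp of the opposite strand's exons, rose at 48 h by 0.79 ± 0.14 (adjusted p = 0.000322), and the immune sum stood at 228.7 to 337.5 FPKM in KO and 179.6 to 310.8 FPKM in WT libraries at 48 h, and 150.5 to 218.8 FPKM in KO and 83.74 to 164.8 FPKM in WT libraries at 0 h. Its part in the changes of the transport genes was not tested.

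Rows of this table cannot all be taken as the sense transcripts of their genes. The kit kept the strand of the RNA, but which strand was counted is not stated in these sources, and with the opposite setting a row would hold fragments of the other strand of its locus. *MT-ND6*, the mitochondrial mRNA gene that lies on the strand opposite to the other 12, had a mean of 32670 FPKM, against a median of 2956 FPKM for those 12 and 138.6 FPKM for *MT-CO1*, and it was the highest of the 13 in 17 of 24 libraries. *MT-CO1*, *MT-ATP6*, *MT-ATP8* and *MT-CO3* had lowest values of 0 FPKM, although their highest were 493.6, 6952, 42390 and 5370 FPKM. Averaged over genotypes, the log2 fold of *MT-CO1* was -9.68 at both 24 h and 48 h against 0 h. These 0 values enter the means and the ranking above. Whether they stand for missing values was not tested. Among 2547 pairs of a coding gene and an antisense-annotated gene that overlap in exons, the antisense row was the higher one in 1289 (50.6%). These measurements were chosen after the data were seen. Values below are those of the deposited rows, and whether a row counts its own gene's transcripts or those of the opposite strand was not settled.

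For 20 of the 41 transport genes an annotated exon on the opposite strand overlapped the gene's own exons, making 22 pairs, and the opposite row was the higher one in 11 of them. *SEC24C*, a cargo-selecting COPII subunit, averaged 7.54 FPKM while AC022400.8, a transcript that GENCODE lists as awaiting experimental support and that covers 42.9% of its exon bases on the other strand, averaged 1080 FPKM. *TMED7* averaged 4.98 FPKM against 196 FPKM for AC010226.1, *ERGIC2* 13.6 FPKM against 219 FPKM for *FAR2*, and *TMED5* 21.5 FPKM against 380 FPKM for *CCDC18*. *TMED1* shares 776 bp (51.3% of its exon bases) with *DNM2* on the other strand. *SAR1B* and *SEC24A*, both on the list, overlap each other head to head by 385 bp. The other 21 genes had no such overlap.

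**Figure D1:**
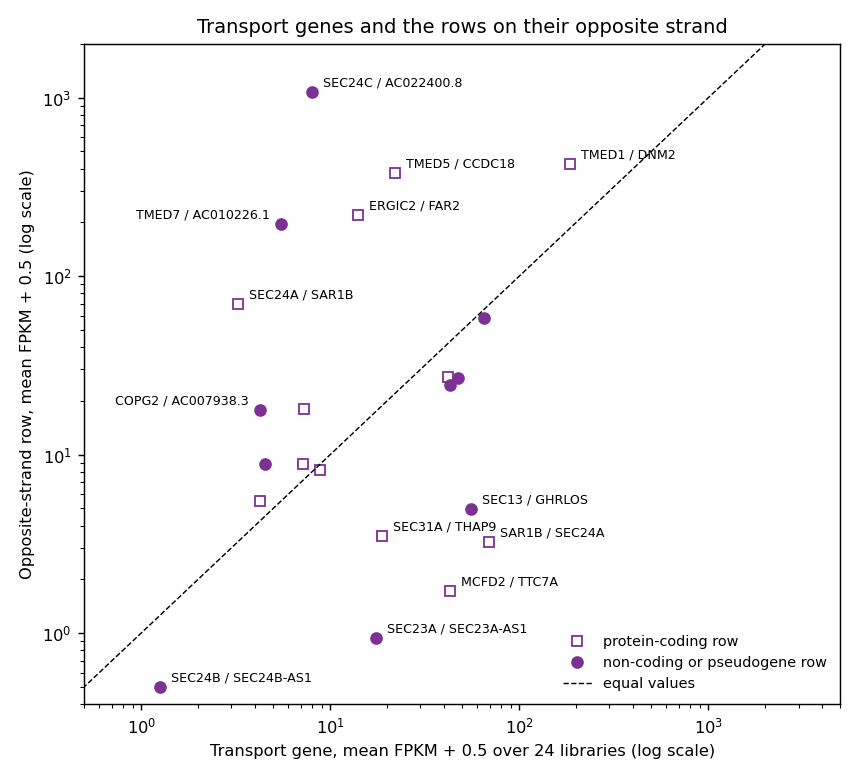
Mean FPKM over 24 libraries of each transport gene (x axis) against the row that overlaps its exons on the opposite strand (y axis), both plus 0.5 and on log scales. Open squares are protein-coding rows and filled circles non-coding or pseudogene rows, and the dashed line marks equal values. In 11 of the 22 pairs the opposite row lies above the line, led by AC022400.8 beside *SEC24C* at 1080 FPKM against 7.54 FPKM.

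With palmitic acid more of these rows went up than down. Averaged over both genotypes, 5 of 41 rose at 24 h against 0 h (*TFG*, *COPG1*, *TMED2*, *TMED5* and *LMAN1*) and 1 fell (*TMED1*), at an adjusted p under 0.05. Over all 17252 genes tested 10.7% were called at 24 h, 4.43% higher and 6.24% lower, so the share of transport genes called higher was 12.2% against 4.43% and the share called lower 2.44% against 6.24%. At 48 h 8 rose (*SEC16A*, *SEC22B*, *SEC23B*, *TFG*, *TMED5*, *KDELR1*, *MCFD2* and *ERGIC3*) and 2 fell (*TMED1* and *SAR1B*), which is 19.5% and 4.88% of the list. Of all genes 15.7% were called at 48 h, 6.57% higher and 9.09% lower. These shares were not matched for expression level, and the members were chosen with earlier results of these data known. With the minimum level set at a mean of 2 FPKM, 40 members and 12055 genes in all were tested. Of all genes 802 were then called higher and 1163 lower at 24 h, and 1101 and 1640 at 48 h. Of the transport genes 5 were then called higher and 1 lower at 24 h, and 9 and 2 at 48 h. Folds are log2 differences of FPKM + 0.5 with their standard error (SE). The median fold of the 41 was 0.447 at 24 h and 0.505 at 48 h, against 0.00856 and 0.0332 over all genes. A positive fold was found in 31 of 41 at 24 h (75.6%, against 50.4% of all genes) and in 32 of 41 at 48 h (78%, against 51.6%). In these bulk libraries fewer cells of a kind and less RNA per cell cannot be told apart. The mitochondrial share of the summed FPKM was 3.2 to 4.43% at 0 h and 10.4 to 14.9% later, and the share in antisense-annotated genes 56.0 to 58.1% and 44.0 to 48.8%. Their part in these changes was not tested. Rescaling the libraries by the median of ratios moved the median of all genes by 0.0714 at 24 h and 0.106 at 48 h, and the medians of the 41 became 0.544 and 0.645. Under it the genes called higher and lower numbered 1007 and 898 at 24 h and 1470 and 1256 at 48 h, against 764 and 1076 and 1133 and 1569 without it. Of the transport genes it called 6 higher and 1 lower at 24 h and 13 higher and 2 lower at 48 h.

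Within each genotype fewer passed. In KO cells *TFG* and *COPG1* rose at 24 h, where 5.64% of all genes were called and 2.13% were higher. *TMED1* fell in KO cells at 48 h, where 9.82% of all genes were called and 6.42% were lower. In WT cells *TFG* rose at 24 h, with 4.06% of all genes called and 1.46% higher. At 48 h *MCFD2* and *ERGIC3* rose and *TMED1* fell in WT cells, with 6.79% of all genes called, 2.57% higher and 4.22% lower. At 24 h the median fold of the 41 was 0.501 in KO cells and 0.336 in WT cells. At 48 h it was 0.653 in KO cells and 0.337 in WT cells. The 24 h and 48 h folds of a genotype share its 0 h libraries. At 48 h against 24 h no member was called with limma, and 3 had an unadjusted p under 0.05, while 1.54% of all genes were called and 10.9% had such a p. Leaving out WT 24 h replicate 0 gave 1 member called, *TMED1*, with a fold of -0.60 (adjusted p = 0.0284), named after its value was seen.

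**Figure D2:**
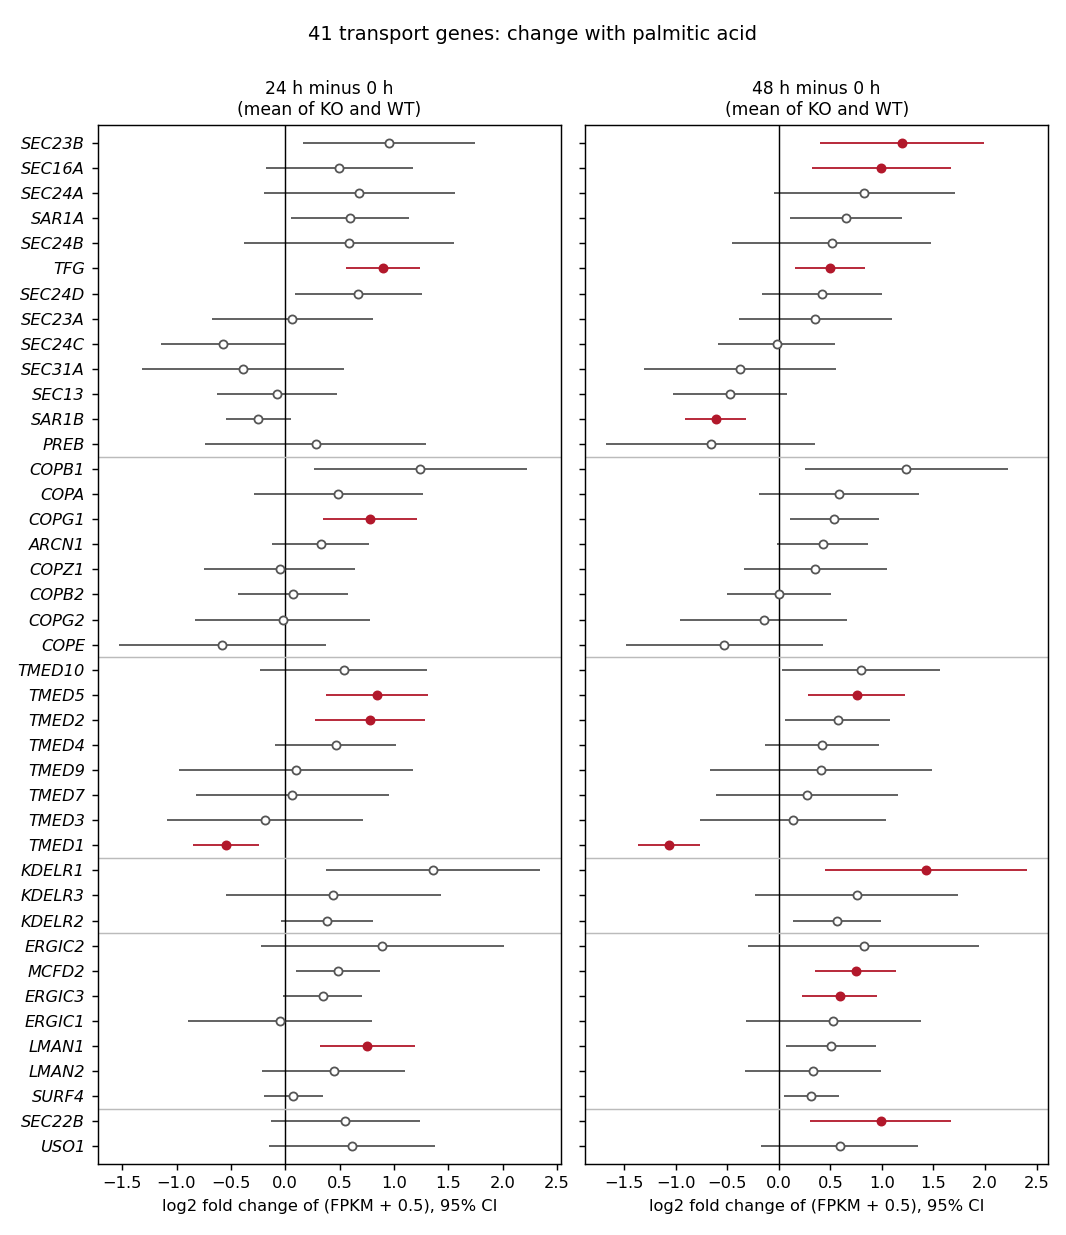
Log2 fold change of FPKM + 0.5 with its 95% confidence interval for the 41 genes, at 24 h (left) and 48 h (right) against 0 h, each the mean of the KO and WT responses, grouped by class from COPII at the top to the tether and SNARE at the bottom. Filled red points passed an adjusted p of 0.05. Points right of 0 are higher with palmitic acid: 31 of 41 at 24 h and 32 of 41 at 48 h.

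Among the COPII genes *TFG* (chr3:100709331-100748966, plus strand, GRCh38), a scaffold that clusters COPII vesicles at exit sites, had the highest level and, at 24 h, the lowest adjusted p. At 0 h *TFG* had 167, 119, 90.3 and 134 FPKM in KO libraries and 207, 118, 121 and 132 FPKM in WT libraries. At 24 h *TFG* had 242, 200.1, 239.7 and 257 FPKM in KO libraries and 269, 219.7, 280.1 and 283 FPKM in WT libraries. At 48 h *TFG* had 250.3, 185, 144 and 228 FPKM in KO libraries and 205, 161, 253 and 117 FPKM in WT libraries. Every 24 h library lay above every 0 h library of its own genotype, although WT 0 h replicate 0 stood above the lowest KO library at 24 h, and at 48 h the groups overlapped. The fold at 24 h was 0.90 ± 0.16 over both genotypes (adjusted p = 0.000512), 0.91 ± 0.23 in KO cells (0.019) and 0.89 ± 0.23 in WT cells (0.0269). At 48 h it was 0.50 ± 0.16 (adjusted p = 0.0399). The averaged rise at 24 h held in each of 16 fits that left out 1 library (highest adjusted p 0.00176), whereas that at 48 h was lost in 10 of 16 (up to 0.0943), that at 24 h within WT in 6 of 8 (up to 0.0924) and that within KO in 2 of 8 (up to 0.0811). With no variance trend the calls within each genotype and at 48 h were lost (up to 0.109), those within WT and at 48 h also in a fit of only the groups compared, and that at 48 h with no filter on low values.

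*SEC23B* (chr20:18507482-18561415, plus strand) and its paralog *SEC23A* encode the GTPase-activating subunit of the inner coat. At 0 h *SEC23B* had 5.68, 6.47, 11.2 and 6.63 FPKM in KO libraries and 6.73, 6.83, 0.671 and 10.8 FPKM in WT libraries. At 24 h *SEC23B* had 6.51, 13.6, 12.1 and 11.05 FPKM in KO libraries and 9.05, 21.5, 9.26 and 16.2 FPKM in WT libraries. At 48 h *SEC23B* had 26.2, 12.4, 12.7 and 19.1 FPKM in KO libraries and 11.5, 7.501, 7.97 and 25.8 FPKM in WT libraries. The KO libraries at 48 h were all above those at 0 h, while the WT libraries overlapped, with 1 WT library at 0 h near 0 and 1 at 48 h far above its fellows. *SEC23B* rose at 48 h by 1.2 ± 0.38 (adjusted p = 0.0346), a call lost in 8 of 16 fits that left out 1 library (up to 0.0858) and in a fit of only the groups compared (0.0776), and its fold at 24 h was 0.95 ± 0.38 (0.123). *SEC23A* had folds of 0.07 ± 0.36 at 24 h and 0.36 ± 0.36 at 48 h. The share of *SEC23A* in the FPKM of the pair at 48 h was 56.1 ± 16.5% in KO libraries and 53.2 ± 23.2% in WT libraries (SD, n = 4), a spread too wide to rank the paralogs.

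*SEC16A* (chr9:136440096-136483759, minus strand) encodes the large exit-site scaffold on which the coat assembles. At 0 h *SEC16A* had 1.503, 3.26, 3.45 and 2.498 FPKM in KO libraries and 1.72, 1.33, 2.34 and 4.44 FPKM in WT libraries. At 24 h *SEC16A* had 4.18, 1.78, 4.53 and 4.51 FPKM in KO libraries and 3.702, 3.31, 3.26 and 4.52 FPKM in WT libraries. At 48 h *SEC16A* had 7, 6.48, 4.53 and 8.94 FPKM in KO libraries and 1.92, 4.14, 3.97 and 9.61 FPKM in WT libraries. The KO libraries at 48 h lay above all KO libraries at 0 h, and the WT libraries spread widely and overlapped. It rose at 48 h by 0.99 ± 0.33 (adjusted p = 0.0398), with a call that was lost in 9 of 16 fits without 1 library (up to 0.088), and under quantile normalization and in a fit of only the groups compared (up to 0.0797). The lncRNA row *C9orf163*, which shares 250 bp with it on the other strand, had a fold of -0.75 ± 0.34 (adjusted p = 0.149).

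*SAR1B* (chr5:134601144-134649271, minus strand), the SAR1 paralog whose loss in humans causes chylomicron retention disease, was the COPII gene that fell. At 0 h *SAR1B* had 66.02, 79.3, 82.7 and 86.9 FPKM in KO libraries and 77.5, 87.03, 99.1 and 78.4 FPKM in WT libraries. At 24 h *SAR1B* had 76.8, 66.5, 75.6 and 104 FPKM in KO libraries and 89.5, 54.7, 44.1 and 57.01 FPKM in WT libraries. At 48 h *SAR1B* had 46.2, 56.02, 40.01 and 65.4 FPKM in KO libraries and 56.8, 49.1, 58.1 and 58.5 FPKM in WT libraries. All 8 libraries at 48 h were below all 8 at 0 h, while those at 24 h overlapped both. The fold at 48 h was -0.61 ± 0.14 (adjusted p = 0.00385), close to the same in KO cells (-0.61 ± 0.20, adjusted p = 0.0581) and in WT cells (-0.61 ± 0.20, 0.0729), and neither genotype passed alone. The call held in each fit without 1 library (up to 0.0101) and was lost under quantile normalization (0.143). *SAR1A*, its paralog, had a fold of 0.65 ± 0.26 at 48 h (adjusted p = 0.1). Of the FPKM of the pair *SAR1B* held 86.2 ± 3.23% in KO libraries and 87.6 ± 5.97% in WT libraries at 0 h (SD, n = 4). That share was 81.6 ± 4.66% in KO and 76.3 ± 6.47% in WT libraries at 24 h, and 71.2 ± 4.67% in KO and 76.4 ± 6.14% in WT libraries at 48 h. Across the head-to-head overlap *SEC24A* averaged 2.75 FPKM and had a fold of 0.83 ± 0.42 (adjusted p = 0.216).

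The other 9 COPII genes did not pass in any comparison. Of the cargo-binding subunits, *SEC24A*, *SEC24B* and *SEC24D* had positive folds at 24 h (0.68, 0.58 and 0.67) and *SEC24C* a negative one (-0.57 ± 0.28, adjusted p = 0.212). The AC022400.8 row opposite *SEC24C* fell at 24 h (-0.45 ± 0.08, adjusted p = 0.000303) and at 48 h (-0.64 ± 0.08, 1.9e-06). *SEC24C* held 53.4 ± 17.5% of the FPKM of the 4 *SEC24* rows in KO libraries and 58.6 ± 12.2% in WT libraries at 0 h, and 33.7 ± 13.3% in KO and 34.9 ± 8.11% in WT libraries at 24 h (SD, n = 4). *SEC24D* held 45.1 ± 7.44% in KO libraries and 39.9 ± 11.4% in WT libraries at 24 h, within the spread of *SEC24C* in both genotypes. *SEC24B* was listed at 0 in 7 of 24 libraries. The cage genes *SEC13* and *SEC31A* had folds of -0.48 ± 0.27 and -0.37 ± 0.45 at 48 h. *PREB*, the exchange factor for SAR1, had -0.66 ± 0.49. The median fold of the 13 genes was 0.499 at 24 h, with 9 positive, and 0.416 at 48 h, with 8 positive.

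**Figure D3:**
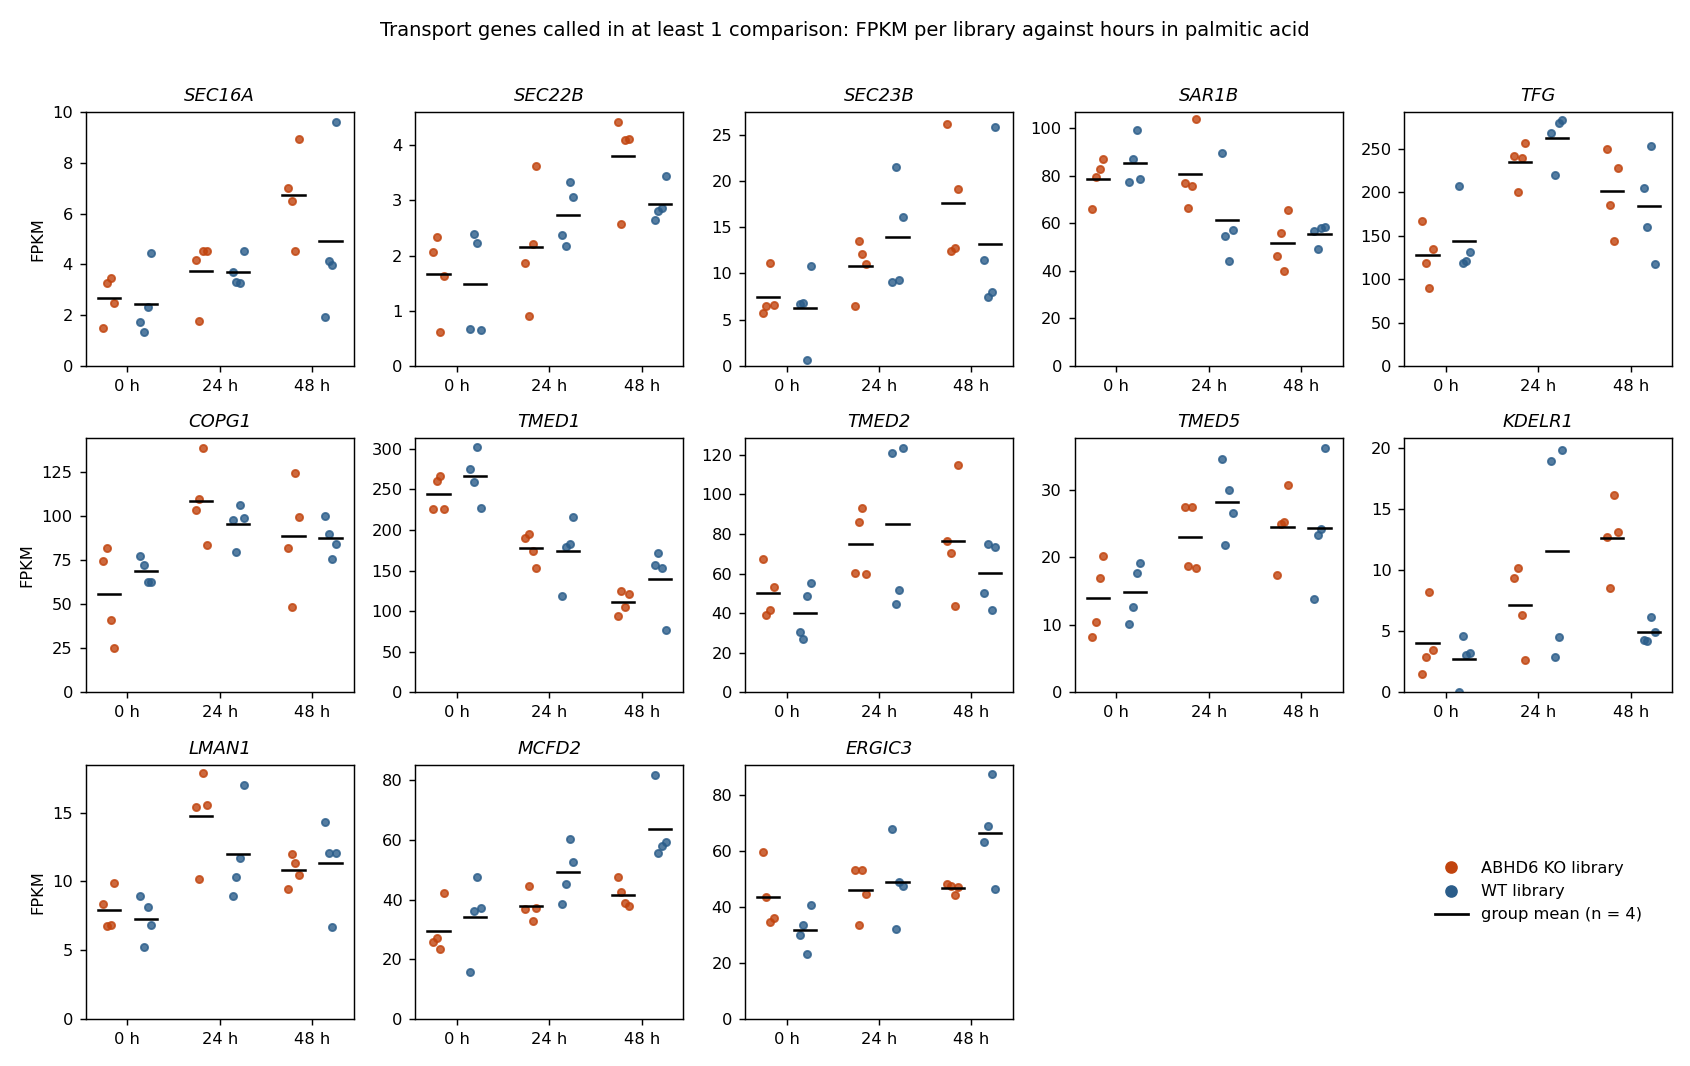
FPKM of the 13 genes called in at least 1 comparison in each of the 24 libraries (points), by hours in palmitic acid, with KO libraries left of WT libraries at each time and the mean of 4 libraries as a black line. *TMED1* steps down from 0 h to 48 h without overlap between those times, *TFG* peaks at 24 h, and *KDELR1* at 48 h is at 8.56 to 16.2 FPKM in KO and 4.22 to 6.19 FPKM in WT libraries.

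In the COPI coat *COPG1* (chr3:129249606-129277773, plus strand), a gamma subunit of the coatomer, was the highest row and the one that passed. At 0 h *COPG1* had 74.3, 81.9, 40.99 and 24.99 FPKM in KO libraries and 77.3, 72.2, 62.5 and 62.3 FPKM in WT libraries. At 24 h *COPG1* had 103, 109.7, 138 and 83.2 FPKM in KO libraries and 97.5, 79.6, 106 and 98.7 FPKM in WT libraries. At 48 h *COPG1* had 81.7, 48.1, 124 and 99.3 FPKM in KO libraries and 99.7, 89.6, 75.8 and 84.1 FPKM in WT libraries. At 24 h each library was above all 0 h libraries of its genotype, although the margins were narrow and the KO values at 0 h ran widely. The fold at 24 h was 0.78 ± 0.21 (adjusted p = 0.0162), 1.09 ± 0.30 in KO cells (0.0298) and 0.47 ± 0.30 in WT cells (0.468). The averaged call held without any 1 library (up to 0.039), and the KO call was lost in 5 of 8 such fits (up to 0.118), with no variance trend and in a fit of only the groups compared (up to 0.209). At 48 h the fold was 0.54 ± 0.21 (adjusted p = 0.0877). *COPG1* held 93.5 to 97% of the summed FPKM of *COPG1* and its paralog *COPG2* as group means.

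*COPB1*, the beta subunit, had the largest fold of the class at both times. At 0 h *COPB1* had 17.2, 3.69, 0.671 and 17.1 FPKM in KO libraries and 6.34, 14.6, 5.36 and 10.6 FPKM in WT libraries. At 24 h *COPB1* had 15.1, 26.8, 8.52 and 11.2 FPKM in KO libraries and 13.02, 16.5, 17.1 and 55.3 FPKM in WT libraries. At 48 h *COPB1* had 26.7, 8.45, 11.5 and 20.5 FPKM in KO libraries and 19.4, 16.5, 12.4 and 36.1 FPKM in WT libraries. The groups overlapped at every time, and WT 24 h replicate 3 stood far above the others of its group. Its folds of 1.24 ± 0.47 and 1.24 ± 0.47 did not pass (adjusted p = 0.101 and 0.084). *COPA*, the alpha subunit, had 1.42, 5.48, 11.7 and 6.804 FPKM in KO libraries and 2.499, 8.83, 9.85 and 4.89 FPKM in WT libraries at 0 h. At 24 h *COPA* had 6.01, 12.2, 29.1 and 11.5 FPKM in KO libraries and 2.29, 4.46, 6.93 and 7.48 FPKM in WT libraries. At 48 h *COPA* had 7.44, 10.9, 11.2 and 9.44 FPKM in KO libraries and 9.32, 6.99, 6.17 and 7.41 FPKM in WT libraries. The libraries overlapped, and the fold at 48 h was 0.58 ± 0.38 (adjusted p = 0.348). The other 5 subunits, *COPB2*, *COPE*, *COPG2*, *COPZ1* and *ARCN1*, had folds between -0.53 (*COPE*) and 0.43 (*ARCN1*) at 48 h, none called. The class median was 0.199 at 24 h and 0.389 at 48 h.

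The TMED family recycles between the ER and the Golgi and sorts cargo such as GPI-anchored proteins, with TMED2 and TMED10 as best-known members. *TMED1* (chr19:10832438-10836318, minus strand), a p24 gamma-type protein, was the gene with the largest fall of the list. At 0 h *TMED1* had 226, 261, 266 and 226 FPKM in KO libraries and 275, 259.5, 302 and 227 FPKM in WT libraries. At 24 h *TMED1* had 189.5, 195, 174 and 153 FPKM in KO libraries and 119, 179, 183 and 215 FPKM in WT libraries. At 48 h *TMED1* had 93.4, 125, 106 and 121 FPKM in KO libraries and 157, 171, 153 and 76.8 FPKM in WT libraries. The 24 h and the 48 h libraries were all below the 0 h libraries, and WT 48 h replicate 3 was the lowest of all. The fold was -0.55 ± 0.15 at 24 h (adjusted p = 0.0156) and -1.06 ± 0.15 at 48 h (1e-05), with -1.14 ± 0.21 in KO cells (0.000517) and -0.99 ± 0.21 in WT cells (0.00352). The 48 h calls held without any 1 library, and the 24 h call was lost under quantile normalization (0.248) and with no variance trend. The call within WT cells at 48 h was lost in a fit of only the groups compared (0.0992). *DNM2*, which lies over 51.3% of its exon bases on the other strand, averaged 426 FPKM and had folds of -0.14 ± 0.10 at 24 h and -0.09 ± 0.10 at 48 h (adjusted p = 0.414 and 0.581). Of the summed FPKM of the 8 *TMED* rows *TMED1* held 68.2 ± 6.02% in KO libraries and 66.6 ± 12.9% in WT libraries at 0 h, and 39.1 ± 4.41% in KO and 49.1 ± 12.3% in WT libraries at 48 h (SD, n = 4). The share in WT libraries at 0 h ran from 47.9% to 76.2%. The sum of WT 0 h replicate 0 held 228 FPKM of *TMED9*, against 4.39 to 15.6 FPKM in the other WT libraries at 0 h.

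*TMED5* (chr1:93149742-93180728, minus strand), another gamma-type member, rose. At 0 h *TMED5* had 8.15, 10.5, 16.97 and 20.3 FPKM in KO libraries and 10.2, 12.6, 17.7 and 19.1 FPKM in WT libraries. At 24 h *TMED5* had 27.5, 18.7, 27.5 and 18.4 FPKM in KO libraries and 34.6, 21.8, 29.9 and 26.5 FPKM in WT libraries. At 48 h *TMED5* had 17.4, 24.9, 25.3 and 30.6 FPKM in KO libraries and 13.9, 23.3, 24.1 and 36.2 FPKM in WT libraries. The WT libraries at 24 h were all above those at 0 h, and the KO libraries overlapped by a small margin at both later times. Folds were 0.84 ± 0.23 at 24 h (adjusted p = 0.0163), held without any 1 library (up to 0.0369), and 0.76 ± 0.23 at 48 h (0.0234), lost in 4 of 16 such fits (up to 0.0553). *CCDC18*, which shares 675 bp with *TMED5* on the other strand, moved the other way: it averaged 346 ± 57.1 FPKM in KO and 325 ± 72.5 FPKM in WT libraries at 24 h, and 540.0 ± 70.4 FPKM in KO and 483 ± 65.4 FPKM in WT libraries at 0 h (SD, n = 4). Its folds were -0.62 ± 0.12 at 24 h (adjusted p = 0.00135) and -0.81 ± 0.12 at 48 h (4.02e-05).

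*TMED2* (chr12:123584531-123598577, plus strand), the p24 beta member, rose at 24 h. At 0 h *TMED2* had 67.3, 39.3, 41.4 and 53.3 FPKM in KO libraries and 30.3, 26.8, 48.8 and 55.1 FPKM in WT libraries. At 24 h *TMED2* had 60.1, 86.3, 93.1 and 59.5 FPKM in KO libraries and 121, 44.7, 51.5 and 123 FPKM in WT libraries. At 48 h *TMED2* had 76.4, 70.2, 43.7 and 115 FPKM in KO libraries and 50.4, 74.8, 41.7 and 73.5 FPKM in WT libraries. Its libraries overlapped at each time, with 2 of the WT libraries at 24 h far above the rest. The fold was 0.78 ± 0.24 (adjusted p = 0.0423) and the call was lost in 9 of 16 fits without 1 library (up to 0.1), with no filter on low values, with no variance trend and in a fit of only the groups compared (up to 0.0782). *TMED10*, the delta member, had 23.2, 6.44, 8.86 and 6.63 FPKM in KO libraries and 12.1, 6.08, 15.6 and 4.68 FPKM in WT libraries at 0 h. At 24 h *TMED10* had 5.55, 15.7, 33.5 and 10.98 FPKM in KO libraries and 19.5, 7.67, 17.04 and 13.1 FPKM in WT libraries. At 48 h *TMED10* had 25.6, 29.3, 21.3 and 21.6 FPKM in KO libraries and 10.7, 12.4, 4.59 and 22.5 FPKM in WT libraries. The KO libraries at 48 h sat close together above 20 FPKM, and KO 0 h replicate 0 overlapped them. Its fold at 48 h was 0.80 ± 0.37 (adjusted p = 0.164). *TMED3*, *TMED4*, *TMED7* and *TMED9* were not called, with folds at 48 h between 0.14 and 0.42, while the AC010226.1 row opposite *TMED7* fell (-0.47 ± 0.11, adjusted p = 0.00516). *TMED9* had 228 FPKM in WT 0 h replicate 0, against 4.39 to 15.6 FPKM in the other WT libraries at 0 h. Without that library its fold at 48 h was 0.99 (adjusted p = 0.0454), against 0.41 with it, and this gene was chosen after its values were seen. The class median was 0.28 at 24 h and 0.414 at 48 h.

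All 3 KDEL receptors had positive folds at both times, with medians of 0.443 at 24 h and 0.754 at 48 h. *KDELR1* (chr19:48382570-48391553, minus strand) passed at 48 h. At 0 h *KDELR1* had 1.53, 2.93, 8.21 and 3.45 FPKM in KO libraries and 0, 4.64, 3.08 and 3.198 FPKM in WT libraries. At 24 h *KDELR1* had 9.39, 10.2, 6.31 and 2.65 FPKM in KO libraries and 18.96, 2.902, 4.56 and 19.8 FPKM in WT libraries. At 48 h *KDELR1* had 12.7, 8.56, 16.2 and 13.1 FPKM in KO libraries and 4.33, 4.22, 6.19 and 4.93 FPKM in WT libraries. At 48 h the 4 KO libraries were above the 4 WT libraries and above all KO libraries at 0 h, and the WT libraries at 24 h split into a high and a low pair. The fold was 1.43 ± 0.47 (adjusted p = 0.0425), lost in 11 of 16 fits without 1 library (up to 0.0923), and 1.36 ± 0.47 at 24 h (0.07). The 48 h call was also lost with the replicate block (0.0567), a pseudocount of 0.1 and no filter on low values (up to 0.0616). *KDELR2*, the most abundant of the receptors, had 25.3, 17.2, 22.97 and 9.28 FPKM in KO libraries and 17.2, 20.7, 30.2 and 31.7 FPKM in WT libraries at 0 h. At 24 h *KDELR2* had 29.8, 23.7, 24.5 and 24.4 FPKM in KO libraries and 33.9, 23.03, 21.7 and 39.3 FPKM in WT libraries. At 48 h *KDELR2* had 24.3, 26.6, 32.9 and 27.8 FPKM in KO libraries and 25.5, 36.8, 32.3 and 43.2 FPKM in WT libraries. Groups overlapped, and the fold of 0.56 ± 0.20 at 48 h did not pass (adjusted p = 0.0661), nor did that of *KDELR3* (0.75 ± 0.48, 0.336). As a share of the summed FPKM of the receptors *KDELR1* held 26.7 ± 3.46% in KO libraries and 10.3 ± 2.3% in WT libraries at 48 h, and 13.6 ± 6.67% in KO and 7.49 ± 5.69% in WT libraries at 0 h (SD, n = 4). The genotype difference of *KDELR1* at 48 h was 1.26 ± 0.67 and did not pass over all genes (adjusted p = 0.817).

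Of the cargo receptors all 7 had positive folds at 48 h, with a median of 0.531, and 6 of 7 at 24 h, with a median of 0.448. LMAN1 (ERGIC-53) and MCFD2 form the complex that carries coagulation factors V and VIII, and mutations of either gene cause a combined deficiency of both factors. At 0 h *LMAN1* had 8.36, 6.78, 6.83 and 9.85 FPKM in KO libraries and 8.92, 5.24, 8.104 and 6.796 FPKM in WT libraries. At 24 h *LMAN1* (chr18:59327823-59359962, minus strand) had 15.4, 10.2, 17.9 and 15.5 FPKM in KO libraries and 8.97, 10.3, 11.7 and 17 FPKM in WT libraries. At 48 h *LMAN1* had 9.48, 11.98, 11.3 and 10.4 FPKM in KO libraries and 14.3, 12.1, 6.704 and 12.1 FPKM in WT libraries. Each 24 h library lay above all 0 h libraries of its genotype, and 48 h values overlapped those at 0 h in both genotypes. *LMAN1* rose at 24 h by 0.75 ± 0.21 (adjusted p = 0.0211), without loss in any fit that left out 1 library (up to 0.0457), and had 0.50 ± 0.21 at 48 h (0.115).

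At 0 h *MCFD2* (chr2:46901870-46941855, minus strand) had 25.8, 27.04, 23.5 and 42.1 FPKM in KO libraries and 15.8, 36.2, 47.7 and 37.3 FPKM in WT libraries. At 24 h *MCFD2* had 36.7, 44.4, 32.7 and 37.1 FPKM in KO libraries and 38.5, 45.1, 60.2 and 52.4 FPKM in WT libraries. At 48 h *MCFD2* had 47.5, 42.4, 38.8 and 37.8 FPKM in KO libraries and 81.9, 55.7, 57.9 and 59.3 FPKM in WT libraries. The WT libraries at 48 h were all above the WT libraries at 0 h and above the KO libraries at 48 h, while 1 KO library at 0 h reached the KO range at 48 h. It rose at 48 h by 0.74 ± 0.19 (adjusted p = 0.00724), a call kept without any 1 library (up to 0.0184). In WT cells the fold was 0.97 ± 0.27 (0.0266), lost without WT 0 h replicate 0 or WT 48 h replicate 0 (up to 0.1), with no variance trend and in a fit of only the groups compared (up to 0.183), and in KO cells 0.52 ± 0.27 (0.268). The antisense row AC016722.2, which shares 441 bp with it, had a fold of -0.38 ± 0.21 (adjusted p = 0.245).

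*ERGIC3* (chr20:35542021-35557634, plus strand), with ERGIC1 and ERGIC2 part of a family of cycling receptors of the intermediate compartment, rose at 48 h. At 0 h *ERGIC3* had 59.7, 43.4, 34.6 and 36.1 FPKM in KO libraries and 29.8, 33.5, 23.1 and 40.7 FPKM in WT libraries. At 24 h *ERGIC3* had 53.2, 33.4, 53.2 and 44.6 FPKM in KO libraries and 67.6, 32.1, 48.97 and 47.4 FPKM in WT libraries. At 48 h *ERGIC3* had 48.1, 47.4, 44.1 and 47.1 FPKM in KO libraries and 63.2, 68.9, 87.5 and 46.3 FPKM in WT libraries. WT libraries at 48 h were all above those at 0 h, whereas KO libraries at 48 h were tightly grouped inside the KO range at 0 h. Over both genotypes the fold was 0.59 ± 0.18 (adjusted p = 0.0223), and it was 0.14 ± 0.25 in KO cells (0.82) and 1.05 ± 0.25 in WT cells (0.0103). The call within WT cells was lost in a fit of only the groups compared (0.067). The difference of those responses, -0.91 ± 0.35, did not pass (adjusted p = 0.641). A processed pseudogene on the other strand, RPL36P4, covers 318 bp of the *ERGIC3* exons and averaged 26.3 FPKM. In WT libraries RPL36P4 averaged 8.32 ± 9.71 FPKM at 0 h and 50.2 ± 18.6 FPKM at 48 h (SD, n = 4). In KO libraries it averaged 42.2 ± 40.3 FPKM at 0 h and 15.2 ± 18.2 FPKM at 48 h. Its fold over both genotypes at 48 h was 1.05 ± 1.34 (adjusted p = 0.675), and its part in the *ERGIC3* values was not tested. At 0 h *ERGIC2* had 9.603, 6.14, 4.96 and 11.5 FPKM in KO libraries and 14.5, 12.7, 14.5 and 0.451 FPKM in WT libraries. At 24 h *ERGIC2* had 18.6, 25.01, 2.86 and 12.6 FPKM in KO libraries and 19.96, 15.1, 14.01 and 16.97 FPKM in WT libraries. At 48 h *ERGIC2* had 26.8, 9.28, 26.5 and 13.2 FPKM in KO libraries and 9.37, 2.46, 23.6 and 16.5 FPKM in WT libraries. The values overlapped, with 1 WT library at 0 h, 1 KO library at 24 h and 1 WT library at 48 h far below their groups, and the fold at 48 h was 0.82 ± 0.54 (adjusted p = 0.36), while the overlapping *FAR2* row fell by 0.84 (SE 0.18, adjusted p = 0.00148). *SURF4*, *LMAN2* and *ERGIC1* had folds of 0.32, 0.33 and 0.53 at 48 h. SURF4 is an exporter of lipoproteins in mouse liver.

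*SEC22B* (chr1:120150898-120176515, minus strand), a SNARE for fusion of vesicles between the ER and the Golgi, was a low row that rose. At 0 h *SEC22B* had 2.07, 2.33, 0.612 and 1.62 FPKM in KO libraries and 0.666, 2.399, 2.22 and 0.657 FPKM in WT libraries. At 24 h *SEC22B* had 1.87, 0.909, 2.21 and 3.62 FPKM in KO libraries and 2.38, 2.17, 3.34 and 3.05 FPKM in WT libraries. At 48 h *SEC22B* had 4.42, 2.57, 4.09 and 4.11 FPKM in KO libraries and 2.65, 2.8, 2.86 and 3.44 FPKM in WT libraries. All 8 libraries at 48 h were above all 8 at 0 h, by a narrow margin at levels of a few fragments. The fold at 48 h was 0.99 ± 0.33 (adjusted p = 0.0448), lost in 10 of 16 fits without 1 library (up to 0.0909). That call was also lost with the replicate block (0.0633), a pseudocount of 0.1, no filter on low values and quantile normalization (up to 0.13). *USO1* encodes p115, the long tether that holds vesicles at the cis-Golgi. At 0 h *USO1* had 26.8, 12.1, 28.4 and 7.99 FPKM in KO libraries and 9.67, 27.6, 41.9 and 12.2 FPKM in WT libraries. At 24 h *USO1* had 17.2, 59.5, 18.98 and 48.8 FPKM in KO libraries and 20.7, 17.7, 34.7 and 28.2 FPKM in WT libraries. At 48 h *USO1* had 37.6, 58.2, 80.9 and 18.7 FPKM in KO libraries and 22.9, 10.9, 18.5 and 18.99 FPKM in WT libraries. Its groups overlapped and spread several-fold within a group, and its fold at 48 h was 0.59 ± 0.37 (adjusted p = 0.327).

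**Figure D4:**
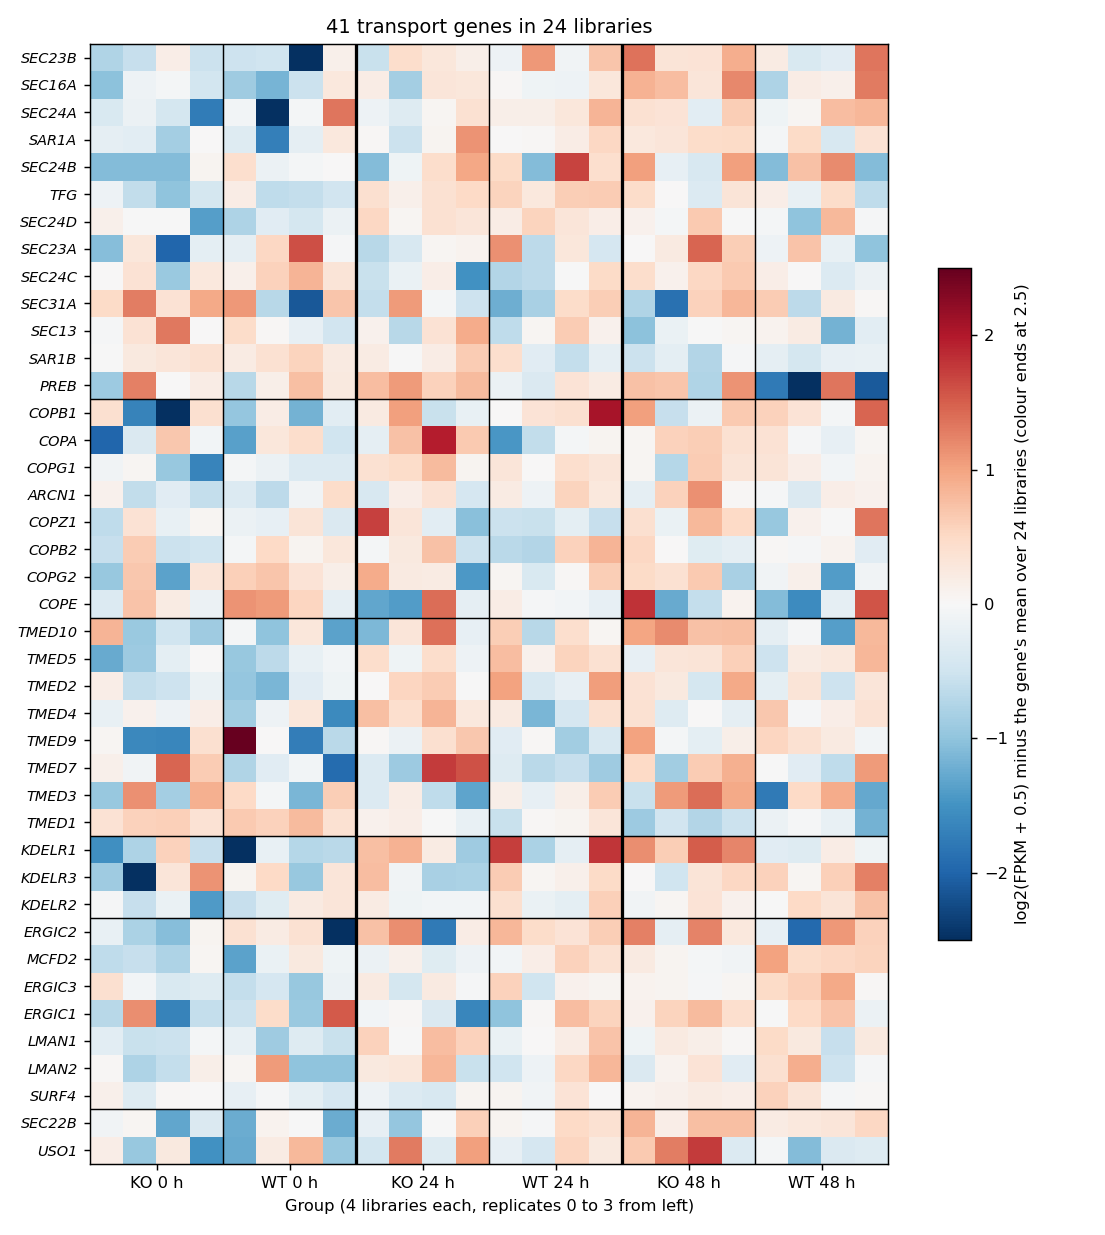
Each gene's log2(FPKM + 0.5) minus its mean over the 24 libraries, with genes in rows by class and libraries in columns by group, KO left of WT at each time; red is above and blue below the gene's mean, and the colour ends at 2.5. *TMED1* turns from red at 0 h to blue at 48 h, *TFG* and *COPG1* are reddest at 24 h, and rows such as *KDELR3* and *COPE* vary among libraries of 1 group.

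No transport gene passed between KO and WT cells at any time. KO against WT, limma called 0 of 41 at 0 h (2 at an unadjusted p under 0.05), 0 at 24 h (3), 0 at 48 h (4) and 0 in the average over times (3), where 0.0985%, 0.0116%, 0.0638% and 0.18% of all genes were called and 6.92%, 5.17%, 6.56% and 6.82% had such a p. The difference between the responses of KO and WT cells called 0 members at 24 h, where 0% of all genes were called, and 0 at 48 h, where 0.0522% were; at an unadjusted p under 0.05 it had 0 and 2 members, against 5.51% and 6.6% of all genes. The median of the 41 was -0.117 at 0 h, -0.0649 at 24 h and 0.246 at 48 h, with 26 of 41 higher in KO cells at 48 h (63.4%, against 46.3% of all genes). At 48 h the widest differences were 1.96 ± 0.69 for *PREB* (adjusted p = 0.508) and 1.29 ± 0.52 for *USO1* (0.66). Differences of the other sign included -0.60 ± 0.27 for *MCFD2* (0.72), whose KO libraries were all below its WT libraries. *SEC23A* had the largest difference of responses at 48 h, 1.95 ± 0.72 (adjusted p = 0.638), on a KO minus WT difference of -1.22 ± 0.51 at 0 h. *PREB*, *USO1*, *MCFD2* and *SEC23A* are named in this comparison after their values were seen.

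These intervals were wide for most rows. Averaged over times, the 95% confidence interval of KO minus WT was -0.33 to 0.22 for *TFG*, -0.36 to 0.14 for *TMED1*, -0.18 to 0.30 for *SAR1B* and -0.33 to 0.27 for *ERGIC3*, which are among the more abundant rows. It was -0.28 to 1.32 for *KDELR1*, -0.38 to 0.91 for *SEC23B* and -1.29 to 0.31 for *COPB1*. Intervals of other abundant rows, such as *COPG1* and *TMED2*, are not given here.

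**Figure D5:**
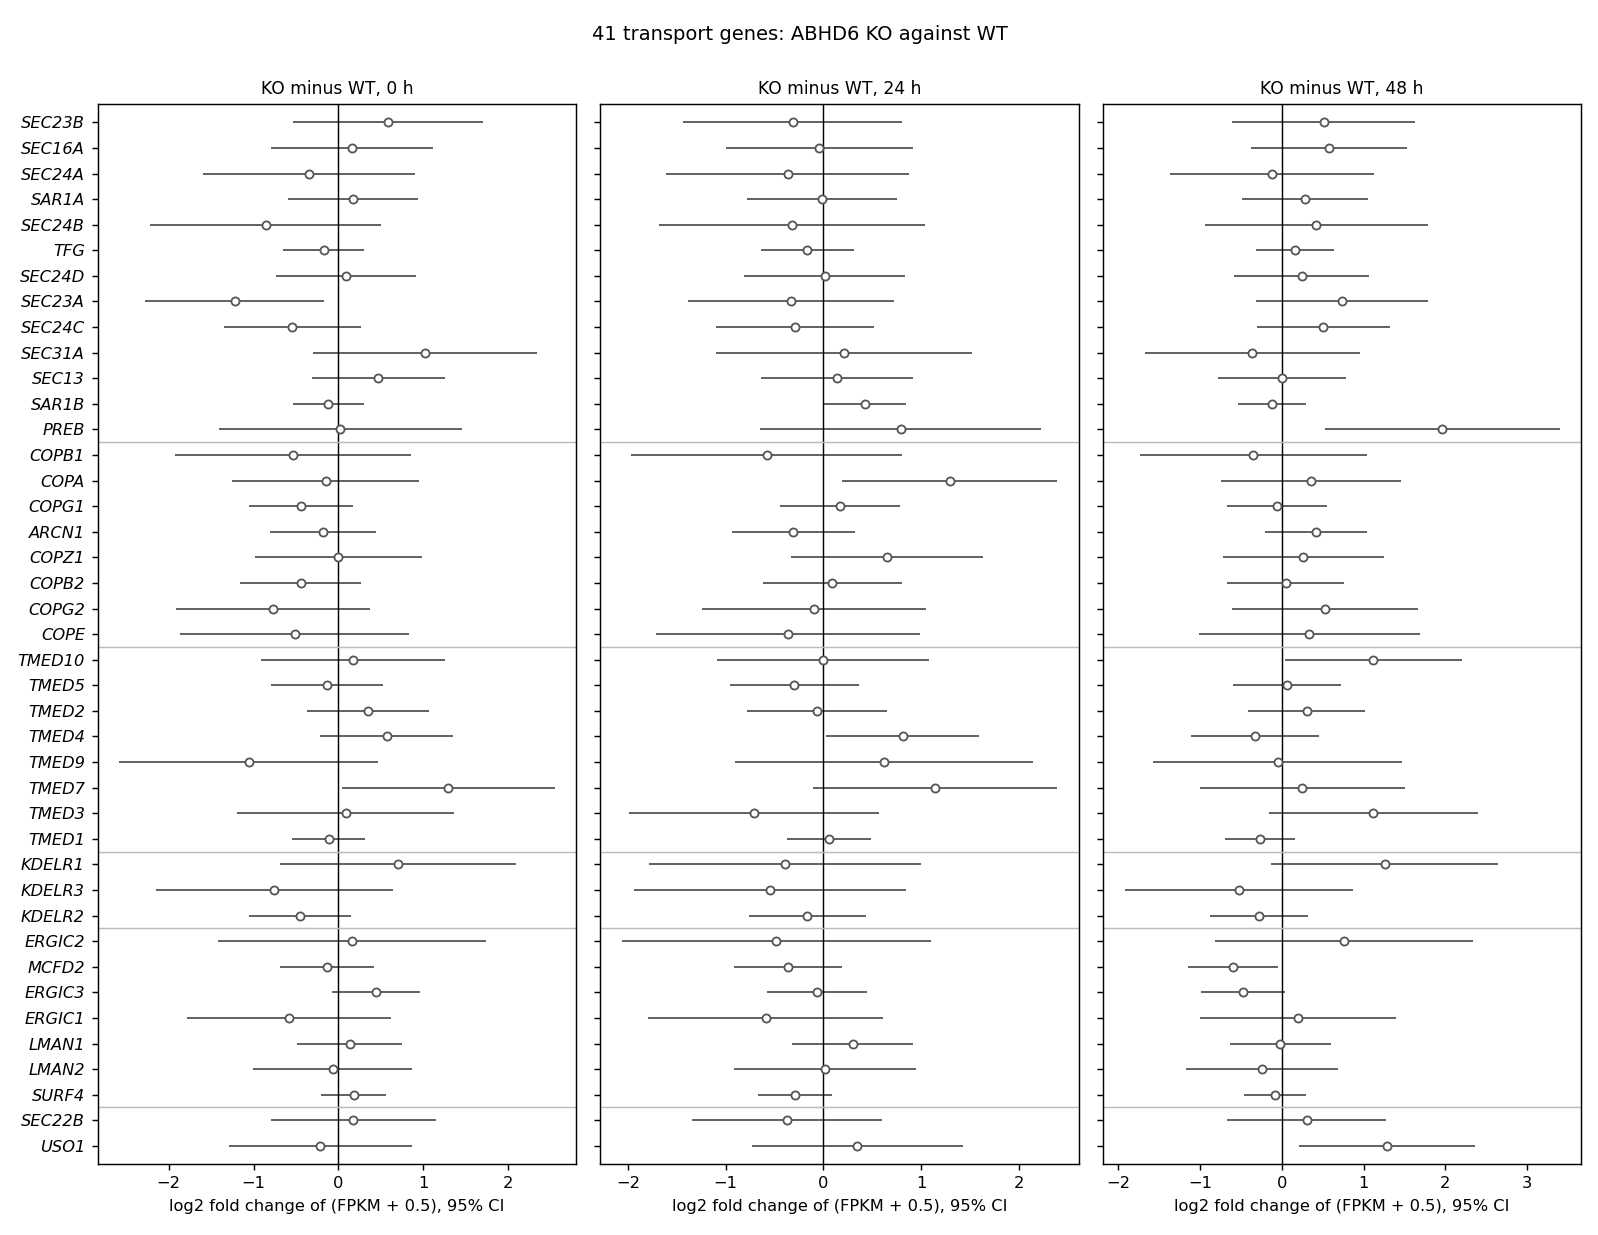
Log2 fold change of KO minus WT with its 95% confidence interval for the 41 genes at 0 h, 24 h and 48 h, in the class order of the response plot. All points are open since none passed an adjusted p of 0.05, and most intervals span 0, with *PREB* at 48 h (1.96) farthest from it.

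The promoters of the genes were searched for short motifs tied to ER stress, since several transport genes are known targets of the unfolded protein response. RefSeq windows of 250 bases before to 50 after a start (GRCh38.p14) were matched for 35 of the 41 genes, 47 windows in all. The motif TGACGTGG, the core of the unfolded protein response element bound by XBP1 and ATF6, was found on either strand in 8 of 47 windows of 7 genes (17.0%), against 0.729% of 35116 windows of all genes and 0.862% of 13920 windows of tested coding genes. Those genes were *COPA*, *COPB1*, *COPB2*, *KDELR3*, *SEC16A*, *SEC23A* and *SEC24A*. Of these 7 *SEC16A* was called in at least 1 comparison, as were 13 of all 41 members. The *SEC16A* match lay in the window chr9:136484691-136484990, upstream of the GENCODE gene, whose end is at 136483759. Its windows at 136483734-136484033 and 136482991-136483290 held no match. Its shorter inner motif ACGTG, which overlaps it, was in 31 of 47 windows (66.0%), against 21.4% of all windows and 25.3% of those of tested coding genes. CCAAT was in 40.4% against 34.6%. The ER stress elements ERSE and ERSE-II were found in 0 of 47 windows, against 0.0769% and 0.0541% of all windows, and the cyclic AMP response element TGACGTCA in 0 against 1.85%. A match is a description of letters and shows no binding. The windows of the called gene, the coat subunits named above, a window with a pair of copies and a KDEL receptor are shown, 5′ to 3′ on the gene's strand, with TGACGTGG or its reverse complement in capitals.

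SEC16A, chr9:136484691-136484990, minus strand: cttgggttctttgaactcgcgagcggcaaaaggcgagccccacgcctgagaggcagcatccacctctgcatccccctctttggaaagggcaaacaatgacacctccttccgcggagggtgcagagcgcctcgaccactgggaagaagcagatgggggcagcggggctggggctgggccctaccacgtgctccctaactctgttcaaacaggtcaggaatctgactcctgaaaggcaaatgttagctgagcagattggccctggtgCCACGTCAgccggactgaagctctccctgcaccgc
COPA, chr1:160343201-160343500, minus strand: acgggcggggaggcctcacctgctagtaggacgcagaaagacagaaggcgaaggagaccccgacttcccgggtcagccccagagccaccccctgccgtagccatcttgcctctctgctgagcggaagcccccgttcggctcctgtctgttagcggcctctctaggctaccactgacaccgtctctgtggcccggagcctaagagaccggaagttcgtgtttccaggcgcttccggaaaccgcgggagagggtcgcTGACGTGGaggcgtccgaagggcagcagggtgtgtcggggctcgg
COPB1, chr11:14499762-14500061, minus strand: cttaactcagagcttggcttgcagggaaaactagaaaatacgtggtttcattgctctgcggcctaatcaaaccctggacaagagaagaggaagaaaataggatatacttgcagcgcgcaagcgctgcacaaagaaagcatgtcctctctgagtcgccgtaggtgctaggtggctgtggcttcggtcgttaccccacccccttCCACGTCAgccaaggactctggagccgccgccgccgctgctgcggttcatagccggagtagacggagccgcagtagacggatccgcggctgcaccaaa
COPB2, chr3:139389598-139389897, minus strand: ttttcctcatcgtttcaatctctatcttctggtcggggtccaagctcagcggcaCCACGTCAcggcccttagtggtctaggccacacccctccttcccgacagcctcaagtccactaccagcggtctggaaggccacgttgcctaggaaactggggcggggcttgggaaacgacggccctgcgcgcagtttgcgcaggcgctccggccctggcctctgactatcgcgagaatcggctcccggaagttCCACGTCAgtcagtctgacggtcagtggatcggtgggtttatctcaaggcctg
KDELR3, chr22:38467846-38468145, plus strand: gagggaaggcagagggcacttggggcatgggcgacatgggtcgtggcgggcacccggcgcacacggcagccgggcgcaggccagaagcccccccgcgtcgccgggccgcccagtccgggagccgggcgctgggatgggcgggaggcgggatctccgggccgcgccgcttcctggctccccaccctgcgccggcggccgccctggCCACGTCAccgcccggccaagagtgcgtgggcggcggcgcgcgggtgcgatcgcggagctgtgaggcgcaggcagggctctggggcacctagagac

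In *COPA* the motif began 5 bases after the annotated start and in *SEC16A* 15 bases after 1 of its RefSeq starts. In *COPB1* and *KDELR3* it began 48 and 46 bases before the start, and in *COPB2* the copies began 196 and 3 bases before it.

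Other genes of the route were read from a companion list of 73, of which 70 were tested. At 24 h 4 rose and 4 fell (5.71% each, against 4.43% and 6.24% of all genes), and at 48 h 5 rose and 5 fell (7.14% each, against 6.57% and 9.09%), shares near those of all genes, with list medians of 0.276 and 0.33. *TRAPPC6A*, a subunit of the TRAPP tether, rose by 2.92 ± 0.88 at 48 h (adjusted p = 0.0242). *CNIH4*, a cargo receptor for G protein-coupled receptors, rose by 2.05 ± 0.51 at 24 h (0.00871) and 2.51 ± 0.51 at 48 h (0.00097). *ARFGAP3*, a GTPase-activating protein for the COPI GTPase ARF1, rose by 1.72 ± 0.45 at 24 h (adjusted p = 0.0149), *YIPF4*, a Golgi membrane protein, by 1.54 ± 0.36 at 24 h (0.00627), and the SNARE *BET1L* by 1.68 ± 0.53 at 48 h (0.031). *NAPA*, the SNARE adaptor alpha-SNAP, fell by 1.39 at 24 h (SE 0.30, adjusted p = 0.00279). Exons on the opposite strand overlap those of *NAPA* by 988 bp and those of *BET1L* by 574 bp. *CNIH4*, *ARFGAP3* and *YIPF4* have no such overlap.

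A list of 30 sensors, factors and chaperones of the unfolded protein response was counted in the same way. Like the list above and the cargo list below, it was chosen with earlier results of these data known. At 24 h 10 rose and 1 fell (33.3% and 3.33%, against 4.43% and 6.24% of all genes), with a median of 0.655, and at 48 h 13 rose and 1 fell (43.3% and 3.33%, against 6.57% and 9.09%), with a median of 0.713. *HERPUD1*, an ER degradation factor, rose by 4.52 ± 0.59 at 24 h (adjusted p = 1.15e-05). *ERN1*, the sensor IRE1, rose by 1.96 ± 0.57 at 48 h (0.0191), and *DNAJB9*, a BiP co-chaperone, by 1.71 ± 0.54 at 24 h (0.0442) and 1.89 ± 0.54 at 48 h (0.0175). *HSPA5*, the chaperone BiP that KDEL receptors return to the ER, rose by 1.45 ± 0.13 at 24 h (4.98e-08) and 1.05 ± 0.13 at 48 h (3.12e-06). *MANF*, another client with a retrieval signal, rose by 1.72 ± 0.33 at 24 h (adjusted p = 0.001), and *HYOU1*, an ER chaperone of the HSP70 family, by 1.36 ± 0.20 (5.1e-05). *CALR*, the KDEL-bearing lectin chaperone calreticulin, fell by 0.59 at 48 h (SE 0.11, adjusted p = 0.000388). *XBP1* had folds of 0.02 ± 0.22 at 24 h and -0.21 ± 0.22 at 48 h (adjusted p = 0.993 and 0.604). *CALR* and *XBP1* were chosen after their values were seen. Exons on the opposite strand overlap those of *HYOU1* by 666 bp, *DNAJB9* by 282 bp and *CALR* by 270 bp. *HERPUD1*, *ERN1*, *HSPA5*, *MANF* and *XBP1* have no such overlap.

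Secreted cargo of the hepatocyte ER, 18 genes, had 1 rise and 3 falls at 24 h (5.56% and 16.7%, against 4.43% and 6.24% of all genes) and 9 rises and 1 fall at 48 h (50% and 5.56%, against 6.57% and 9.09%), with medians of -0.118 and 0.551. *TTR* rose by 1.51 ± 0.26 at 48 h (adjusted p = 0.000146), *AMBP* by 1.19 ± 0.11 (2.82e-08) and *ALB*, albumin, by 0.84 ± 0.17 (0.00101). *APOA1*, the main protein of HDL, fell by 0.89 (SE 0.14, adjusted p = 4.77e-05). Its exons overlap 123 bp of the opposite strand's exons, and those of the other cargo genes named here overlap none. *APOH*, a plasma glycoprotein, rose at 48 h by 0.75 ± 0.18 (adjusted p = 0.00491) and *TF*, transferrin, by 0.71 ± 0.11 (5.08e-05). In the KO against WT average, where 0.18% of all genes were called in either direction, 3 cargo genes (16.7%) were lower in KO cells, with folds for *APOA1* of -0.64 ± 0.11 (adjusted p = 0.0101), *TF* of -0.60 ± 0.09 (0.00183) and *FGB*, a fibrinogen chain, of -0.54 ± 0.09 (0.00759). The summed FPKM of the 18 was lower in KO than in WT libraries at each time, 0 h included, without overlap. At 0 h it was 1114 to 1214 in KO libraries and 1311 to 1614 in WT libraries. At 24 h it was 975.2 to 1152 in KO libraries and 1246 to 1460 in WT libraries. At 48 h it was 1588 to 1730 in KO libraries and 1860 to 2151 in WT libraries.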

How the data were processed

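RNA of 24 Huh7 libraries was extracted with an RNeasy kit, made into directional mRNA libraries and sequenced on an Illumina instrument, per the labels' protocols. FPKM values were made by the authors, with STAR, Cufflinks, Cuffdiff and GRCh38 named in the submitters' processing notes without versions or roles. The annotation and the scaling between libraries are not given in the sources used here. The treatment protocol mentions a harvest on day 1 only, and the 48 h groups came from the sample labels.

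Of the 58024 deposited rows 45 duplicate rows of chromosome Y were left out, and 57375 of the other identifiers matched GENCODE release 29. A mean of 0.5 FPKM or more over the libraries was met by 17252 genes, whose log2(FPKM + 0.5) went into 1 fit of 6 group means with limma 3.58.1 in R 4.3.3, with an intensity trend (18 residual and 4.63 prior degrees of freedom). The 13 comparisons were adjusted over all genes by the Benjamini-Hochberg method, and called means an adjusted p under 0.05. FPKM carries no counts, so no count model was used. The fit was also run on simulated normal log2 values that had the spreads of this same fit. Such values cannot show errors that come from handfuls of fragments.

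The members, classes and companion lists were chosen with earlier results of these data known. Values in every library are given for members called in any comparison and, per class, for the member with the highest mean and those with the largest fold at 48 h; of each companion list the 6 called genes with the largest folds at 24 h or 48 h are named, and others were chosen after their values were seen. Alternatives were a pseudocount of 0.1 or 1, the floor removed or set at 2 FPKM, quantile and median-of-ratios scaling, no variance trend, only the groups compared, a replicate block, and each library left out. The mitochondrial and antisense strand counts were added after the data were seen. No 2 libraries were identical, and replicates correlated at 0.816 to 0.881 across genes.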

Additional observations from a re-analysis of the deposited data

Results flagged for a closer look

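Within groups of 4 libraries, a value was listed when its gap to the nearest other library was above Dixon's 95% critical value as a share of the group's range. That happened in 7 of 114 groups tested over 19 genes, and chance alone gives about 1 in 20. Highest libraries stood apart for *TFG* in WT 0 h (replicate 0 at 207 FPKM, the others at 118 to 132), *MCFD2* in WT 48 h (replicate 0 at 81.9, the others at 55.7 to 59.3) and *COPB1* in WT 24 h (replicate 3 at 55.3, the others at 13 to 17.1). The same held for *TMED10* in KO 0 h (replicate 0 at 23.2 FPKM, the others at 6.44 to 8.86) and *KDELR2* in KO 24 h (replicate 0 at 29.8, the others at 23.7 to 24.5). Lowest libraries stood apart for *SEC16A* in KO 24 h (replicate 1 at 1.78 FPKM, the others at 4.18 to 4.53) and *ERGIC2* in WT 0 h (replicate 3 at 0.451, the others at 12.7 to 14.5). Without WT 0 h replicate 0 the averaged *TFG* rises at 24 h and 48 h were still called, and without WT 48 h replicate 0 the *MCFD2* rise within WT cells was not.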

How the results depend on the processing

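Folds under other settings were read for the 19 genes with values given in every library. These were 81 folds: all at 24 h and 48 h over both genotypes, and elsewhere those called or with an unadjusted p under 0.05. None of them reversed in direction, and weaker folds in the other comparisons were not checked. Of 1728 values under other settings, 1580 kept their side of the threshold, 104 lost a call and 44 gained one. The counts of members called moved by over 1.5 times as follows. At 24 h in WT cells, 1 member was called, against 0 with no variance trend and 0 in a fit of only the groups compared, and 0 to 1 without 1 library. At 24 h in KO cells, 2 were called, against 0 with no variance trend, 1 with only the groups compared, and 0 to 2 without 1 library. At 48 h in WT cells 3 were called, all of which were lost with only the groups compared, where 1 other gene, *SAR1B*, was called. At 48 h in KO cells the single call became 2 with a filter at 2 FPKM, 3 with median-of-ratios scaling, 3 with quantile normalization and 1 to 3 without 1 library. Averaged over genotypes the 10 calls at 48 h became 4 to 10 without 1 library (5 without WT 48 h replicate 3, 5 without KO 48 h replicate 0, 4 without KO 48 h replicate 3), and the 0 calls of 48 h against 24 h became 0 to 1. The cause was not tested. Quantile normalization turned the calls over all genes to 881 higher and 750 lower at 24 h and 1257 and 1156 at 48 h. No other count of members moved as far under any setting run, and no fit of only the groups compared exists for KO against WT averaged over times.

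Replicate numbers showed no clear pairing of the libraries. Deviations of same-numbered libraries correlated at -0.125 to 0.144 over 60 pairs (median 0.0078), and those of other pairs at -0.16 to 0.166 (median -0.00891). Of the 24 libraries 7 correlated best with their own number. At this depth a weak pairing could be missed. With the replicate block 2 members were called at 48 h in KO cells against 1, with *TFG* added (adjusted p = 0.0481). Over both genotypes at 48 h it ended the calls of *SEC22B* (0.0633) and *KDELR1* (0.0567) and added *COPB1* (0.0431), and no other count moved by over 1.5 times.

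Leaving out 1 library ended the following calls, each by any 1 of the libraries named. The call of *TFG* at 24 h in WT cells was lost without WT 0 h replicates 1, 2 and 3, WT 24 h replicates 0, 2 and 3. That of *MCFD2* at 48 h in WT cells was lost without WT 0 h replicate 0, WT 48 h replicate 0. The call of *TFG* at 24 h in KO cells was lost without KO 0 h replicate 2, KO 24 h replicate 3. That of *COPG1* at 24 h in KO cells was lost without KO 0 h replicates 2 and 3, KO 24 h replicates 0, 1 and 2. The call of *TMED2* at 24 h was lost without KO 0 h replicates 1, 2 and 3, WT 0 h replicates 0 and 1, KO 24 h replicates 1 and 2, WT 24 h replicates 0 and 3. That of *SEC16A* at 48 h was lost without KO 0 h replicates 0 and 3, WT 0 h replicates 0 and 1, KO 48 h replicates 0, 1 and 3, WT 48 h replicates 1 and 3. The call of *SEC22B* at 48 h was lost without KO 0 h replicate 2, WT 0 h replicates 0 and 3, KO 48 h replicates 0, 2 and 3, WT 48 h replicates 0, 1, 2 and 3. That of *SEC23B* at 48 h was lost without KO 0 h replicates 0, 1 and 3, WT 0 h replicate 2, KO 48 h replicates 0 and 3, WT 48 h replicates 0 and 3. The call of *TFG* at 48 h was lost without KO 0 h replicates 1 and 2, WT 0 h replicates 1, 2 and 3, KO 48 h replicates 0, 1 and 3, WT 48 h replicates 0 and 2. That of *TMED5* at 48 h was lost without KO 0 h replicate 0, WT 0 h replicate 0, KO 48 h replicate 3, WT 48 h replicate 3. The call of *KDELR1* at 48 h was lost without KO 0 h replicates 0, 1 and 3, WT 0 h replicate 0, KO 48 h replicates 0, 2 and 3, WT 48 h replicates 0, 1, 2 and 3.

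Leaving out 1 library also added calls of genes not called with all libraries. At 48 h over both genotypes these were *TMED9*, *SAR1A*, *KDELR2*, *COPB1*, *COPG1*, *PREB* (lower, without WT 48 h replicate 2) and *LMAN1*, at 24 h *KDELR1*, *MCFD2* and *COPB1*, and within a genotype *SAR1B*, *PREB*, *TFG*, *SEC23A*, *COPG1*, *TMED5* and *USO1*.

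Low depth limits rows under a few FPKM, the strand that was counted is unknown, and wide intervals leave moderate differences between KO and WT undetectable.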
